A study of Mus musculus with 11 samples.

Results

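The vascular miRNAs mmu-miR-126a-3p, mmu-miR-126a-5p, mmu-miR-221-3p, mmu-miR-221-5p and mmu-miR-222-3p were followed by name through small RNA libraries of the mouse cortex after ischemic stroke, and these 5 names were taken from the 1907 mature miRNA names in each count table. The libraries came from male Balb/cOlaHsd mice labelled as 3 months old, and all were collected 3 days after surgery. In 6 sham mice the middle cerebral artery was exposed without being closed, and the tissue was labelled as cortex. In 5 mice the left artery was closed for good by heat (permanent middle cerebral artery occlusion, pMCAO), and the tissue was labelled as peri-ischemic cortex, the rim that surrounds the ischemic core. According to the methods of the study the brains were perfused before dissection. The deposited names of both groups carry the word vehicle, which no label explains, and whether the mice received a vehicle is not stated. The tissue was sequenced whole, so fewer cells of a type and less RNA per cell cannot be told apart, and the kind of dissected tissue cannot be told apart from the surgery.

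A miRNA is cut as a duplex from a hairpin precursor, and either strand, called the 5p or the 3p arm, can be loaded into the silencing complex, where bases 2 to 8, the seed, pair with target mRNAs. The miR-126a hairpin lies within Egfl7, a gene of endothelial cells, and miR-126a-3p is best known for sustaining vascular endothelial growth factor signalling through repression of Spred1 and Pik3r2. miR-221 and miR-222 are made from neighbouring hairpins, share a seed and repress Kit and the cell cycle inhibitor Cdkn1b in endothelial and smooth muscle cells. They are also made outside vessels, neurons included.

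The mature sequences are shown because they set which members can share targets. They were read from RefSeq on GRCm38.p6, which held 4 of the 5 members, and the seed is in capitals.
miR-126a-3p: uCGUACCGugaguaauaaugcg
miR-221-3p: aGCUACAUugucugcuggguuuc
miR-222-3p: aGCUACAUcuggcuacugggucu
miR-221-5p: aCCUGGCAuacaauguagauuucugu
The 3p arms of miR-221 and miR-222 had the seed GCUACAU in common and were identical over their first 8 bases, whereas only 11 of their 23 positions matched along the whole length. The seeds of miR-126a-3p and miR-221-5p were shared with no other mature miRNA in that table. The longest run of bases that any of the 4 sequences shared with a mature miRNA outside the members was 10.

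miR-126a-3p was located at chr2:26591402-26591423 on the plus strand (GRCm38). Its 73-base hairpin gene Mir126a (chr2:26591357-26591429) lay inside Egfl7 (chr2:26580014-26593120) on the same strand. Of 19 annotated Egfl7 transcripts, 9 spanned the hairpin, which was intronic in 8 of them and within an exon in 1. The intron measured 600 bases in 6 of these transcripts and 1054 bases in the other two. On the X chromosome, miR-222-3p (chrX:19146901-19146923), miR-221-5p (chrX:19146344-19146369) and miR-221-3p (chrX:19146307-19146329) all lay on the minus strand. The Mir222 and Mir221 hairpins, of 79 and 95 bases, were separated by 504 bases, and no other annotated gene overlapped either.

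**Figure D1:**
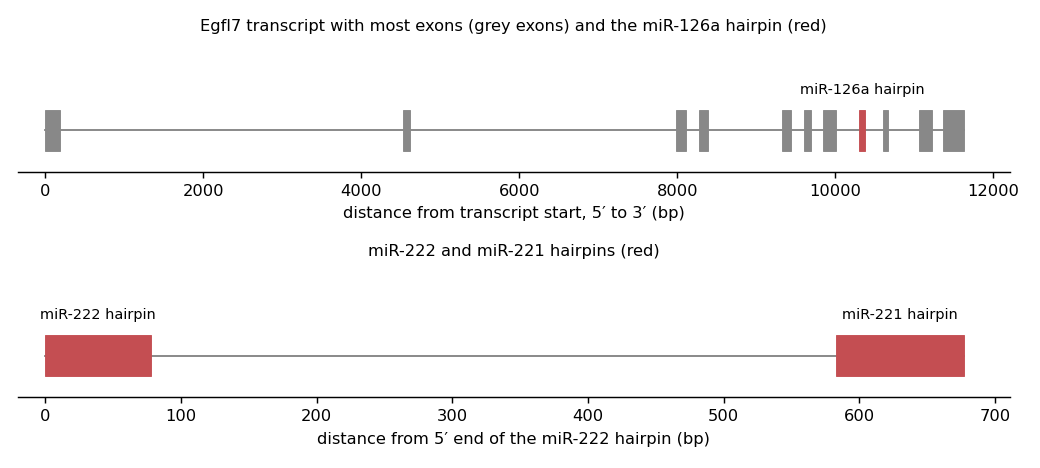
Positions of the hairpins, in bases from the start of the Egfl7 transcript with most exons (top) and from the 5′ end of the Mir222 hairpin (bottom). Grey boxes are Egfl7 exons and red boxes are hairpins; the miR-126a hairpin falls between exons of this transcript, and the miR-221 hairpin begins 504 bases after the miR-222 hairpin ends.

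The sham libraries held 1429037 to 2319810 miRNA counts and the pMCAO libraries 744877 to 1411620, so that no pMCAO library reached the depth of the shallowest sham library, and depth moved with the surgery. Levels are therefore given as CPM, the count scaled to a common library size, after TMM normalization, which sets the library sizes from miRNAs assumed not to change. Within both groups all 25 pairs of libraries differed by more than sampling noise, and each was taken as 1 replicate. The summed level of 6 neuronal miRNAs, led by miR-124-3p and miR-128-3p, ran from 319596 to 407716 CPM in sham and from 276006 to 325533 CPM in pMCAO libraries. A quasi-likelihood model (edgeR) was fitted across 479 miRNAs, and after adjustment by the Benjamini-Hochberg method 34 (7.10%) passed an adjusted p of 0.05, 21 higher (4.38%) and 13 lower (2.71%) in pMCAO. None of the 6 neuronal miRNAs passed, and their log2 fold changes went both ways, with a median of -0.07. Below 0 were miR-124-3p (-0.32, edgeR adjusted p = 0.0523), miR-128-3p (-0.39), miR-9-5p (-0.10) and miR-137-3p (-0.04). Above 0 were miR-138-5p (0.21) and miR-129-5p (0.32). For miR-124-3p every pMCAO library lay below every sham library, as for 3.34% of all tested miRNAs. Sham replicate 5 stood apart from its group: 23 of the 479 miRNAs lay far below the other sham libraries there (Dixon's criterion at 95%), against 0 to 2 in each of the other sham libraries. In pMCAO replicate 5 the number was 9, against 0 to 4 in the other pMCAO libraries.

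All 5 members were measured well enough to be tested, and none passed the adjusted threshold, 0 of 5 beside 7.10% of all miRNAs tested. For each member the 95% interval of the fold change, given with its values, shows how large a difference these libraries allow. In this fit, 1 of the 5 (miR-221-5p) had an unadjusted p under 0.05, a threshold that 24.4% of all tested miRNAs passed, and DESeq2 likewise called 0 members with 1 under the unadjusted threshold. The median log2 fold change of the members was -0.06, beside 0.00147 for all miRNAs tested, and 4 of the 5 estimates were below 0. Together the members took 1.54% ± 0.104 (SD, n = 6) of the miRNA counts of a sham library and 1.76% ± 0.230 (SD, n = 5) of those of a pMCAO library, ranges of 1.45% to 1.68% and 1.53% to 2.09% that overlapped.

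The order of the levels was the same in nearly every library. miR-126a-3p came first, followed by miR-126a-5p, miR-221-3p, miR-222-3p and, far below, miR-221-5p, in 5 of 6 sham and 5 of 5 pMCAO libraries. In sham replicate 5, miR-126a-5p came after miR-222-3p. By mean CPM, miR-126a-3p ranked 32 among all names in sham and 31 in pMCAO, whereas miR-221-5p ranked 287 and 321. The ranges of miR-221-3p and miR-222-3p overlapped across libraries of a group, although miR-221-3p was the higher of the pair in each library. Ligation and amplification can favour some sequences, so the order compares counts and not molecules.

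**Figure D2:**
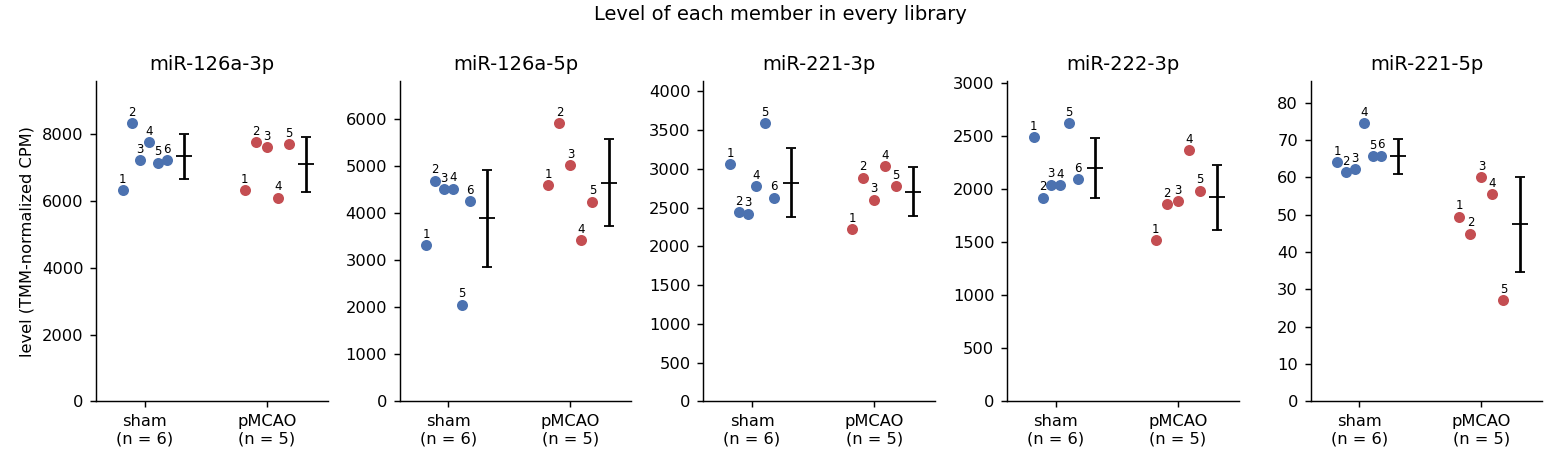
TMM-normalized CPM of each miRNA in every library (points, numbered by replicate; blue sham, red pMCAO; linear axes from 0, with a scale of their own in each panel), with mean and SD beside them. The groups overlap for the first 4 miRNAs, and for miR-221-5p all pMCAO libraries, at 27.2 to 60.0 CPM, lie below the lowest sham library, at 61.4 CPM.

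miR-126a-3p, the arm that represses Spred1 and Pik3r2, was the steadiest of the abundant members. Its sham level ran from 6313 to 8331 CPM with a median of 7210 CPM, and the pMCAO libraries had 6316, 7744, 7600, 6095 and 7693 CPM. Both groups thus held libraries near the bottom and the middle of the same range, and only pMCAO replicate 4 fell under the lowest sham library. The means were 7326 ± 675 (SD, n = 6) and 7090 ± 813 CPM (SD, n = 5), and the log2 fold change was -0.05 (SE 0.10), with an edgeR adjusted p of 0.866. The 95% interval of the fold change, 0.829 to 1.13, bounds how far the means could differ. The exact permutation test gave p = 0.574. With 5615 to 16699 counts per library, counting error was 0.774% to 1.33% of the level. The spread between libraries was far larger, at 9.21% in sham and 11.5% in pMCAO.

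miR-126a-5p, the other arm of the same hairpin, varied more. The lowest, median and highest sham libraries had 2051, 4372 and 4685 CPM, and the pMCAO libraries had 4596, 5909, 5018, 3424 and 4237 CPM. Sham replicates 5 and 1 lay well below the rest, replicate 5 at 2051 and replicate 1 at 3311 CPM, while pMCAO replicates 2 and 3 exceeded every sham library. The mean was 3884 ± 1023 CPM in sham (SD, n = 6) and 4637 ± 922 CPM in pMCAO (SD, n = 5), and the log2 fold change of 0.26 (SE 0.20) did not pass the test (edgeR adjusted p = 0.495). Its 95% interval in fold, 0.888 to 1.60, was wider than that of the 3p arm. Without sham replicate 5 the log2 fold change was 0.14.

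The ratio of the arms within a library does not depend on scaling. In sham libraries miR-126a-3p exceeded miR-126a-5p by a factor of 1.60 to 1.91 in replicates 1, 2, 3, 4 and 6, and by 3.48 in replicate 5. The pMCAO libraries had factors of 1.37, 1.31, 1.51, 1.78 and 1.82, so that the 3p arm was the more abundant one in every library. The mean log2 ratio was 0.96 ± 0.42 in sham (SD, n = 6) and 0.63 ± 0.21 in pMCAO (SD, n = 5). This difference of -0.34 did not pass an exact permutation test (p = 0.104, adjusted over the 4 ratios compared p = 0.139), and without sham replicate 5 it was -0.17.

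The miRNAs most like miR-126a-5p were chosen over all 11 libraries, sham replicate 5 included, so that a low level in that library is part of what chose them. The 3 miRNAs whose levels kept the steadiest ratio to miR-126a-5p were miR-93-5p, miR-140-3p and miR-130a-3p, with SDs of the log2 ratio over the 11 libraries of 0.18, 0.20 and 0.21, beside an SD of 0.40 for miR-126a-5p itself. In sham replicate 5, miR-140-3p stood at 999 CPM against 2011 to 2411 CPM in the other sham libraries, and miR-93-5p at 602 CPM against 913 to 1028 CPM. miR-126a-3p showed no such dip, and the SD of its log2 ratio to its own partner arm was 0.37. For miR-126a-3p the nearest miRNAs were miR-340-5p, miR-27a-3p and miR-101b-3p (SDs of 0.12, 0.14 and 0.15), none of which passed the test. These SDs describe likeness over 11 libraries that share a depth difference between the groups.

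**Figure D3:**
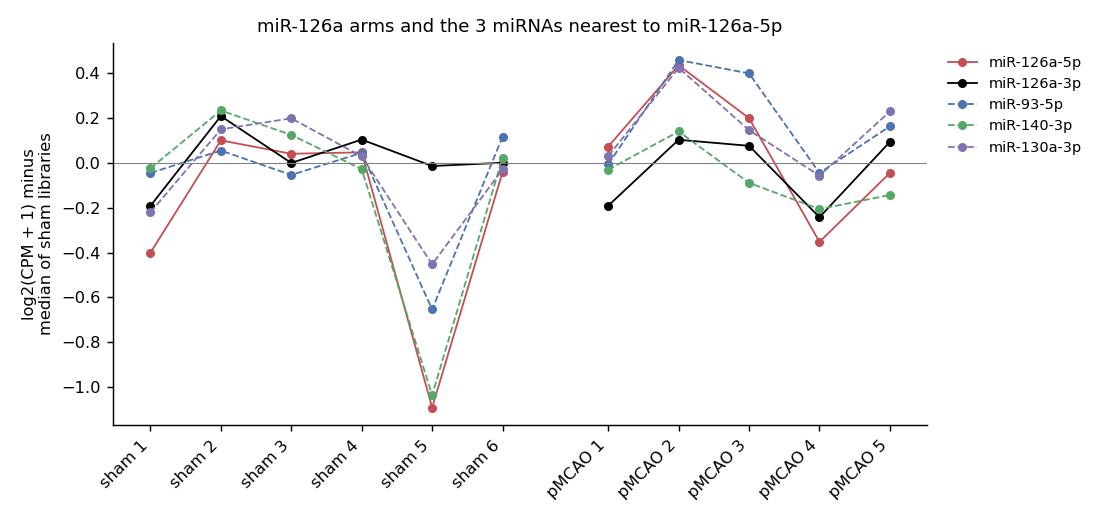
Level of both miR-126a arms and of the 3 miRNAs nearest to miR-126a-5p in each library, as log2(CPM + 1) minus the median of the sham libraries; lines join the values of 1 miRNA and stand for no order of the libraries. In sham replicate 5 miR-126a-5p and the 3 other miRNAs drop while miR-126a-3p stays near 0.

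miR-221-3p, a repressor of Kit and Cdkn1b, did not differ beyond the spread between libraries. Sham libraries had 2421 CPM at the lowest, 2703 at the median and 3592 at the highest, and pMCAO libraries had 2217, 2887, 2602, 3038 and 2779 CPM. The highest sham library was replicate 5, the lowest library of all was pMCAO replicate 1, and the rest were mixed. Means of 2821 ± 446 (SD, n = 6) and 2705 ± 316 CPM (SD, n = 5) gave a log2 fold change of -0.06 (SE 0.13), a fold interval of 0.795 to 1.16 and an edgeR adjusted p of 0.850.

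miR-222-3p, which carries the same seed, had a larger estimate in the same direction. Its sham libraries ran from 1919 to 2624 CPM with a median of 2068 CPM, and its pMCAO libraries had 1517, 1856, 1885, 2367 and 1986 CPM. In pMCAO, 4 of 5 libraries lay below the sham median and replicate 4 lay above it, so the groups overlapped. The log2 fold change was -0.19 (SE 0.13; means 2200 ± 285, n = 6, and 1922 ± 305 CPM, n = 5, SD), with an edgeR adjusted p of 0.415 and an exact permutation p of 0.136. The interval in fold, 0.722 to 1.06, leaves room for a moderately lower level and little room for a higher one.

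miR-222-3p and miR-221-3p come from neighbouring hairpins, and the difference between the groups in their ratio did not pass after adjustment. For each miR-221-3p count there were 0.730 to 0.843 miR-222-3p counts in sham and 0.643 to 0.779 in pMCAO libraries, ranges that overlapped. The log2 ratio differed by -0.14, from -0.35 ± 0.083 (SD, n = 6) to -0.50 ± 0.10 (SD, n = 5). The exact permutation p was 0.0281 and, adjusted over the 4 ratios, 0.0952, so it did not pass. With 1 library left out the difference ran from -0.18 to -0.11. The adjusted exact permutation p passed in 2 of these 11 fits, at 0.0476 without sham replicate 5 and 0.0381 without pMCAO replicate 4, and was highest, at 0.181, without pMCAO replicate 2. Over the 11 libraries the SD of their log2 ratio was 0.116. Outside the members, the nearest miRNAs to miR-221-3p were miR-495-3p (0.118), miR-329-3p (0.130) and miR-22-5p (0.14), so miR-222-3p was nearer than each of these. To miR-222-3p the nearest were miR-329-3p (0.103), miR-495-3p (0.110) and miR-125b-5p (0.13). Of these, miR-329-3p and miR-495-3p were nearer to it than miR-221-3p was.

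miR-221-5p, the minor arm of the miR-221 hairpin, was the member whose groups stood furthest apart. The sham libraries lay close together, from 61.4 to 74.6 CPM with a median of 64.8 CPM, and the pMCAO libraries had 49.5, 44.9, 60.0, 55.4 and 27.2 CPM. Every pMCAO library was below every sham library, which was true of 3.34% of all tested miRNAs. Expressed as a plain percentage of each library's counts, however, the groups overlapped, at 0.00530% to 0.00723% in sham and 0.00298% to 0.00619% in pMCAO. On that scale 0.626% of all tested miRNAs were lower in every pMCAO library.

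The means of miR-221-5p were 65.6 ± 4.74 CPM in sham (SD, n = 6) and 47.4 ± 12.7 CPM in pMCAO (SD, n = 5). The log2 fold change was -0.47 (SE 0.19), or 0.722 in fold with an interval of 0.546 to 0.953. The edgeR p was 0.0248 and, adjusted over all miRNAs tested, 0.143, so the difference did not pass. The exact permutation test on this single miRNA gave p = 0.00216, unadjusted, which is the smallest value that 6 and 5 libraries allow. The values rest on 90 to 123 counts per sham library and 38 to 75 per pMCAO library, where counting error alone was 9.02% to 16.2% of the level, so the spread of 7.23% within sham is no larger than counting error. Without pMCAO replicate 5, the lowest library and the one with most miRNAs far below its group, the log2 fold change was -0.30.

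**Figure D4:**
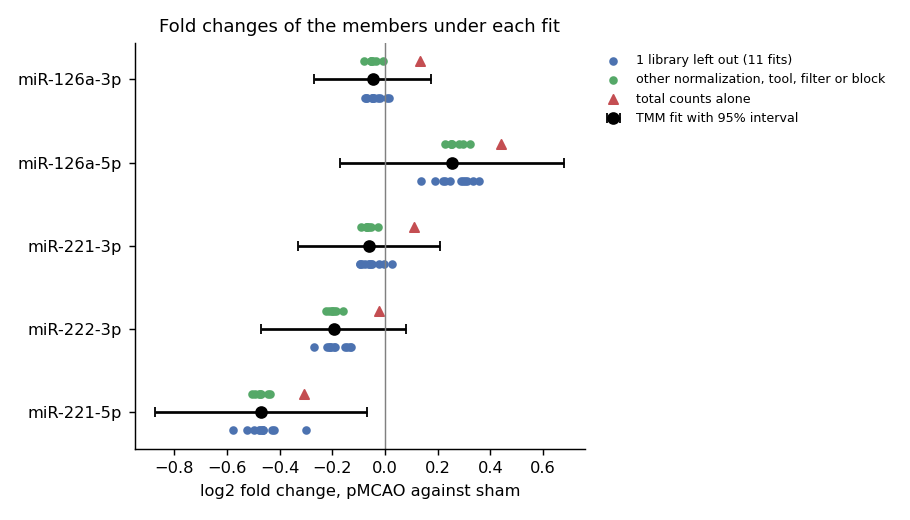
Log2 fold change of each miRNA, pMCAO against sham (horizontal axis), with its 95% interval from the TMM fit (black), from fits that leave out 1 library (blue), from other normalizations, tools, filters or the replicate block (green) and from total counts alone (red triangle). The interval of miR-221-5p, -0.87 to -0.07, is the only one that excludes 0, and miR-126a-3p and miR-221-3p change sign when total counts alone set the scale.

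The 3p arm of miR-221 outnumbered the 5p arm by a median factor of 39.7 in sham and 54.5 in pMCAO libraries. The pMCAO factors reached from 43.1 to 101.0 and the sham factors from 37.1 to 54.5, so only some pMCAO libraries exceeded sham. The difference in log2 ratio of 0.45 had an exact permutation p of 0.0476 and, adjusted over the 4 ratios, 0.0952. Without pMCAO replicate 5 the difference was 0.25, with an adjusted exact permutation p of 0.178. It passed in 1 of 11 such fits, without sham replicate 5, at 0.53 with an adjusted exact permutation p of 0.0476. The miRNAs nearest to miR-221-5p over the 11 libraries were miR-342-3p, miR-205-5p and miR-195a-5p, with SDs of the log2 ratio of 0.16, 0.18 and 0.20. Of these, miR-195a-5p passed the test as lower in pMCAO (log2 fold change -0.63, edgeR adjusted p = 0.0396). These neighbours were chosen over all 11 libraries. The group difference of miR-221-5p and its low level in pMCAO replicate 5 are therefore part of what chose them.

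Locus partners that were not members gave few counts. miR-222-5p, the minor arm of the miR-222 hairpin, had 16 to 37 counts per library and a log2 fold change of 0.01 (SE 0.21), with means of 18.1 ± 3.64 CPM in sham (SD, n = 6) and 18.2 ± 3.13 CPM in pMCAO (SD, n = 5). Both arms of miR-126b, a hairpin annotated on the strand opposite to miR-126a with all 58 of its bases inside it, had at most 1 count in any library and were not tested. miR-1928, which also has the seed GCUACAU, was at 0 counts in all 11 libraries. Its mature sequence is shorter than the 20 bases that the length filter required. Reads of that sequence were thus removed before counting, and the 0 counts do not bound its level.

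The balance between the 2 loci had nearly the same mean in both groups. The log2 ratio of miR-221-3p to miR-126a-3p was -1.39 ± 0.31 in sham (SD, n = 6) and -1.39 ± 0.22 in pMCAO libraries (SD, n = 5). The exact permutation p for the difference was 0.974. The spread within each group was wide, from 0.293 to 0.503 counts of miR-221-3p per count of miR-126a-3p in sham and from 0.342 to 0.499 in pMCAO.

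**Figure D5:**
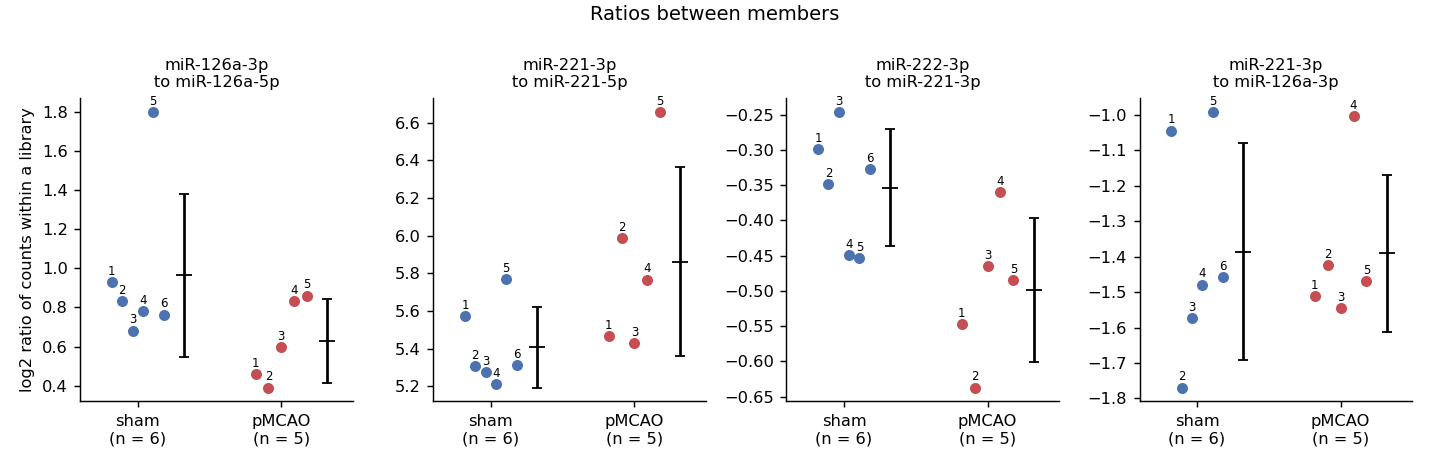
Log2 ratio of counts within each library for 4 pairs of miRNAs (points numbered by replicate; blue sham, red pMCAO; mean and SD beside them; axes do not start at 0). The groups overlap in every panel, and sham replicate 5 stands alone at the top of the miR-126a panel.

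Log2 fold changes of other miRNAs tied to endothelial cells or angiogenesis went both ways, and some lay beyond the range of the members. Of 20 listed, 19 were tested, with a median log2 fold change of -0.06, beside 0.00147 for all tested miRNAs. In pMCAO 2 were higher (4.38% of all tested miRNAs), miR-10a-5p (log2 fold change 1.99, edgeR adjusted p = 0.0267) and miR-92a-3p (0.88, 0.0252), and 1 was lower (2.71% of all), miR-23b-3p (-0.35, 0.0356). Leaving out 1 library at a time kept the call of miR-92a-3p in 9 of 11 fits, that of miR-10a-5p in 6 and that of miR-23b-3p in 3. In 8 fits with another scaling, tool, filter or block, the calls were kept in 8, 7 and 3, respectively. The summed level of the list was 53131 to 56537 CPM in sham and 44207 to 54862 CPM in pMCAO libraries. The call of miR-92a-3p was lost without sham replicate 3 or pMCAO replicate 2, and that of miR-10a-5p without sham replicate 2, 3, 4 or 6 or pMCAO replicate 2. That of miR-23b-3p was kept only without sham replicate 5 or pMCAO replicate 3 or 4.

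Markers of other cells of the vessel and the blood were set beside the members. Among mural cell and fibroblast miRNAs, 1 of 7 tested was higher in pMCAO (beside 4.38% of all tested miRNAs), miR-214-3p (log2 fold change 1.68, edgeR adjusted p = 0.0296). The median log2 fold change of the list was 0.79, but its members went both ways. Log2 fold changes of miR-143-3p (-0.04), miR-145a-5p (-0.22) and miR-145a-3p (-0.07), added after their values were seen, lay below 0 and did not pass. The summed level, set mostly by miR-145a-5p and miR-143-3p, was 6891 to 11580 CPM in sham and 6420 to 8889 CPM in pMCAO. The arms miR-199a-3p, miR-199a-5p and miR-199b-3p, named after their values were seen, had log2 fold changes of 0.79 to 1.06 and did not pass (edgeR adjusted p of 0.0547 to 0.120). The call of miR-214-3p was lost without sham replicate 3, 4 or 6 or pMCAO replicate 2 or 5. Of 4 leukocyte and platelet miRNAs, 3 rose (beside 4.38% of all tested miRNAs), namely miR-223-3p (2.31, edgeR adjusted p = 0.00544) and both arms of miR-142a (1.55 for 3p and 1.46 for 5p, the latter with an adjusted p of 0.00569), and each kept its call in 11 of 11 such fits. The fourth and most abundant, miR-150-5p, likewise named after its values were seen, had a log2 fold change of -0.25 (SE 0.15, edgeR adjusted p = 0.370), with all 5 pMCAO libraries below the sham median. The list summed to 2422 to 3718 CPM in sham and 3148 to 6363 CPM in pMCAO libraries. The erythrocyte miRNA miR-451a stood at 5115 CPM in sham replicate 1 against 42.7 to 252 CPM in the other sham libraries and 620 to 4465 CPM in pMCAO libraries, and with 2 of 5 listed erythrocyte miRNAs tested none passed. The level of miR-451a thus varied between libraries of brains that were perfused. The 2 tested, miR-451a and miR-144-3p, had log2 fold changes of 0.96 (SE 1.08) and 1.17 (SE 0.97), with edgeR adjusted p of 0.672 and 0.537. The part of the cells behind these markers in the levels of the members was not tested.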

How the data were processed

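Small RNA of the cortex was sequenced in 11 libraries, 6 sham and 5 pMCAO. Per the methods of the study, the authors trimmed reads from the Ion Torrent platform with Torrent Suite, checked them with FastQC, kept lengths of 20 to 30 bases, mapped them with Bowtie to mm10 and counted them with HTSeq on miRBase 21. The deposited values are raw counts per mature miRNA name. How reads that map to several places were treated is not given in the sources used here, and the length filter removes shorter or longer variants of a member. Reads carry no molecular identifiers, so counting errors cover counting only.

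Groups were taken from the sample labels. The labels number the replicates and do not name the animals, and each library was taken as a replicate. The p-values set a difference between the groups against the spread between these libraries. Counts of all 1907 names entered edgeR 4.0.16 in R 4.3.3 (filterByExpr with a minimum count of 10 and a minimum total of 15, TMM, glmQLFit and glmQLFTest, Benjamini-Hochberg adjustment over 479 miRNAs, threshold 0.05), with no covariate. The steps were tested on simulated data with 200 changed miRNAs. Standard errors were obtained by dividing log2 fold changes by the root of F, and intervals are at 95%. Single values were compared by two-sided exact permutation tests that enumerate every assignment of libraries to groups, using log2(CPM + 1) for levels and log2 of counts plus 0.5 for the 4 ratios. Alternatives were RLE, upper-quartile and total-count scaling, DESeq2 1.42.0 (the tool the study names), a robust fit, no filter, at least 10 counts in every library, a replicate block, leaving out each library, an adjusted p of 0.1 and, for ratios, 2 added counts. The values without sham replicate 5 set beside the arm ratio, and the arm ratios of other hairpins, were added after seeing the data.

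The members and the lists were chosen with earlier results of these data known. The miRNAs named are the members, their hairpin partners, names that share a seed, list members with an adjusted p under 0.05 (otherwise the 2 most abundant) and, for each member, the 3 tested miRNAs with the smallest SD of the log2 CPM ratio to it. The lists were other endothelial and angiogenic, mural and fibroblast, erythrocyte, leukocyte and platelet, and neuronal miRNAs. miR-1928 was named for its seed. Sequences are from RefSeq, and gene positions from GENCODE vM21, both on GRCm38.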

Additional observations from a re-analysis of the deposited data

Results flagged for a closer look

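Values were checked in 20 groups of libraries for a single library far from the rest of its group by Dixon's criterion, of which chance alone marks about 1 in 20, and 5 were marked. The log2 ratio of miR-126a-3p to miR-126a-5p reached 1.80 in sham replicate 5, whereas the rest of the sham group lay between 0.68 and 0.93. The log2 ratio of miR-221-3p to miR-126a-3p was -1.004 in pMCAO replicate 4, against -1.55 to -1.42 in the other pMCAO libraries. The level of miR-221-5p as log2(CPM + 1) reached 6.24 in sham replicate 4, above the 5.96 to 6.06 of the others of its group. For miR-222-5p it was 3.63 in sham replicate 1, against 4.19 to 4.48, and 3.80 in pMCAO replicate 4, against 4.28 to 4.44, at 16 to 37 counts per library.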

How the results depend on the processing

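No member passed an adjusted p of 0.05 in the TMM fit or in any of the alternatives, and the lowest adjusted p that edgeR or DESeq2 gave was 0.0947 (miR-221-5p, without pMCAO replicate 3). miR-126a-5p stayed above 0 and miR-221-5p and miR-222-3p below 0 in all of 19 alternatives each. Total counts alone moved the median of all tested miRNAs by 0.17 on the log2 scale and reversed miR-126a-3p to 0.13 and miR-221-3p to 0.11. Leaving out 1 library moved the log2 fold change of miR-126a-3p from -0.0763 to 0.0159 (reversed without sham replicate 2, at 0.00642, and without pMCAO replicate 4), that of miR-221-3p from -0.0942 to 0.0267 (reversed without sham replicate 5), and that of miR-126a-5p from 0.14 (without sham replicate 5) to 0.36. For miR-221-5p it ran from -0.58 to -0.30 and for miR-222-3p from -0.27 to -0.13. The difference between the groups in the log2 ratio of miR-221-3p to miR-126a-3p moved between -0.101 and 0.0741 and changed sign in 6 of 11 such fits. The difference in the miR-221-3p to miR-221-5p ratio ran from 0.25 to 0.56, that of miR-222-3p to miR-221-3p from -0.18 to -0.11, and that of the miR-126a arms from -0.39 to -0.17. The miR-222-3p to miR-221-3p difference passed without sham replicate 5 and without pMCAO replicate 4, and the miR-221 arm difference without sham replicate 5, whereas 2 added counts gave the latter an adjusted exact permutation p of 0.126; the cause was not tested.

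The 34 calls over all miRNAs (21 higher, 13 lower) became 18 (15 higher, 3 lower) with at least 10 counts in every library, 57 (32 and 25) at an adjusted p of 0.1, and 16 to 36 with 1 library left out, lowest without sham replicate 3. The split was 43 higher and 1 lower with total counts alone, 23 and 4 with upper-quartile scaling, and 25 and 8 without a filter; DESeq2 called 45. Correlations of the deviations of same-numbered libraries were 0.118, 0.117, 0.0593, -0.0701 and 0.23, so the numbers were not taken to pair the samples. With the replicate block 22 were called (19 higher, 3 lower), miR-221-5p had a log2 fold change of -0.50 (edgeR adjusted p = 0.212), and no member passed; the calls of miR-10a-5p and miR-23b-3p were lost. With the replicate block the adjusted p of the miR-221 arm ratio and of the miR-222-3p to miR-221-3p ratio was 0.25 each by an exact sign-flip test. For the ratios a pairing of 5 libraries cannot give an exact p under 0.0625. Among the members, counting error was largest for miR-221-5p.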

Other observations

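The arm balance of miR-126a was set beside that of 58 hairpins with a mean of at least 100 counts on both arms, a set chosen after the data were seen. The difference in log2 ratio of 3p to 5p between pMCAO and sham, -0.34 for miR-126a, ranked 5 from the lowest of the 58, whose median was -0.00554. That rank includes sham replicate 5, where the miR-126a log2 ratio was 0.99 above the sham median, rank 3 from the highest of the 58. Without that library the miR-126a difference was -0.17, and its rank was not computed. The miR-221 and miR-222 hairpins did not reach that mean on their 5p arms. In sham replicate 5, 11 of the 58 hairpins had their highest ratio among the sham libraries and 18 their lowest.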
